A study of Mus musculus with 34 samples.

Results

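The immediate early and AP-1 genes were followed in whole mouse kidney at post-natal day (P)28. The 10 genes Fos, Fosb, Fosl1, Fosl2, Jun, Junb, Jund, Egr1, Atf3 and Ier2 were taken by name from the 23509 genes of each gene count table, and all 10 were found in the tables and passed the filter on low counts that left 15644 genes for testing. Poly(A) RNA was sequenced from 34 kidneys, 1 library per mouse, all of C57BL6 background. The 12 untreated (UNT) mice were wild type and non-transgenic and received no injection. The 11 PBS mice and the 11 RGLS4326 mice were Pkd2-KO (spelled Pdk2KO in the genotype label), a polycystic kidney model in which the Pkhd1 promoter drives Cre, and so the loss of floxed Pkd2, in tubule cells, mainly of the collecting duct, so that the other cells of the kidney keep the gene. Both KO groups were injected subcutaneously on P10, P11, P12 and P19, with PBS alone or with 20 mg per kg of RGLS4326 in PBS. All PBS libraries of the labels were used here, which is more than the study's text counts for this comparison. RGLS4326 is a short, chemically modified oligonucleotide that pairs with the seed of miR-17, a microRNA that represses its target mRNAs. Genotype and injection differed together between UNT and both KO groups, so their effects cannot be told apart in those comparisons. The study also dosed KO mice with a control oligonucleotide, but no such group is among these 34 libraries. In RGLS4326 against PBS, inhibition of miR-17 and the dosing of any oligonucleotide thus cannot be told apart.

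Immediate early genes are transcribed within minutes of a growth factor, stretch, cytokine or stress signal, without new protein synthesis, and their mRNAs decay quickly. Fos and Jun family proteins pair through leucine zippers to form AP-1, a transcription factor that binds short DNA sites in the control regions of genes for proliferation, matrix remodelling and inflammation. Fos family proteins must pair with a Jun protein, whereas Jun proteins can also pair among themselves. Signals reach the Fos and Egr1 promoters mainly through MAP kinases that act on serum response factor (SRF) with its ternary complex partners (TCF), and through CREB, which binds cyclic AMP response elements. In kidney epithelium, Fos, Jun and Egr1 are known as early markers of acute tubular injury, and Atf3 is a stress-induced relative of the Fos and Jun proteins.

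The oligonucleotide's target and its 7-letter seed matches in the 3′ UTRs of the 10 mRNAs are shown first. The mature strand of mmu-miR-17-5p (RefSeq, GRCm38.p6, chr14:115043684-115043706, + strand) has its seed, bases 2 to 8, in capitals.
mmu-miR-17-5p: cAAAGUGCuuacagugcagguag
For every gene, the longest 3′ UTR in GENCODE M21 was searched on the sense strand for the 7 letters GCACTTT, the complement of the seed, and for CACTTTA, which pairs with bases 2 to 7 and ends in A. Fosl2 and Atf3 held 1 match to GCACTTT each, shown in capitals with the 10 bases on either side, and neither letter run occurred in the other 8 genes.
Fosl2 site, from base 3015 of the UTR: gcactatgagGCACTTTtctatttatc
Atf3 site, from base 952 of the UTR: gatgttaatgGCACTTTtgtcttgtag
Of 14193 tested genes with an annotated 3′ UTR, 21.2% held at least 1 match. A match is a run of letters and was not tested here as a binding site. Shorter matches, coding sequence and other transcripts of the genes were not searched, so a gene without a match may still pair with miR-17.

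The promoter windows of 7 of the genes (RefSeq, GRCm38.p6, 250 bases before to 50 after the start) were then searched on both strands for the response elements that these genes are known for. Fosl1, Egr1 and Ier2 had no window and were not searched. The RefSeq start of the Jund window lies upstream of the GENCODE start of the gene, so that this window covers none of the Jund exon counted here. The RefSeq starts of the Atf3 and Fosl2 windows lie inside the GENCODE genes, downstream of their GENCODE starts. TGACG, the core of a cyclic AMP response element, stood in the windows of Fos, Fosb, Junb and Atf3, and in 20.8% of all 32851 windows. TGACNTCA, the longer form with 1 free base, of which TGACGTCA also contains TGACG, stood in the window of Jun as TGACATCA, and in 8.83% of all windows. The AP-1 site TGACTCA, the Egr1 site GCGTGGGCG and the SRF CArG box had no match in the 7 windows, and stood in 5.2%, 0.612% and 1.63% of all windows. Sequence farther than 250 bases before the start was not searched, so the genes may still hold these sites outside the windows. The windows of Fos, Jun and Atf3, 1 of each family and all rising together in the cystic kidney, are printed 5′ to 3′ on the gene's own strand with TGACG or TGACNTCA in capitals (CGTCA where it was read on the other strand).
Fos, chr12:85473640-85473939, + strand: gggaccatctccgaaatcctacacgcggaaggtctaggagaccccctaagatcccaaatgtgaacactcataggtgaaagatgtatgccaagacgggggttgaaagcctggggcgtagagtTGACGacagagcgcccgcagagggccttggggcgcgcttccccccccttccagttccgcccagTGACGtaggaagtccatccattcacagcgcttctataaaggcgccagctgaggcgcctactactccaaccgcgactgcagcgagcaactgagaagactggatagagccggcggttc
Jun, chr4:95052173-95052472, - strand: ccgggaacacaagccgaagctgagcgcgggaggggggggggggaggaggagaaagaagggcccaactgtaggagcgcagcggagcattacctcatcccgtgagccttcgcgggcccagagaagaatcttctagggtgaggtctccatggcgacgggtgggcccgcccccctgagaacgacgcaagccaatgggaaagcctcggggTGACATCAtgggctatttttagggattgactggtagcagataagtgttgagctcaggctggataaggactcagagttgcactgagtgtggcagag
Atf3, chr1:191183284-191183583, - strand: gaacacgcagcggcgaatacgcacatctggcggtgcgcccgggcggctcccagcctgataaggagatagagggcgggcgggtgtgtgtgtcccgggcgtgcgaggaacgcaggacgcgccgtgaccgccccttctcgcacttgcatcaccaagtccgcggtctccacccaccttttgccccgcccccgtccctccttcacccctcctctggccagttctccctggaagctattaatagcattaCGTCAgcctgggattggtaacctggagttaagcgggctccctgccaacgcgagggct
In Fos the 2 matches began 129 and 66 bases before the RefSeq start, in Jun the match began 45 bases before that start, and in Atf3 it began 7 bases before the RefSeq start inside the gene.

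On GRCm38, in the GENCODE M21 annotation, Fos lies at chr12:85473890-85477273 (+ strand), Fosb at chr7:19302696-19310051 (-), Fosl1 at chr19:5447547-5455946 (+) and Fosl2 at chr5:32135801-32157842 (+). Jun lies at chr4:95049034-95052222 (-) and Atf3 at chr1:191170296-191218039 (-). Junb, Jund and Ier2 share chromosome 8, at chr8:84974484-84978718 (-), chr8:70698949-70700616 (+) and chr8:84661331-84662852 (-). Jun, Jund and Ier2 have a single exon each. All 10 are protein-coding.

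The libraries held 17603122 to 54981992 reads in genes, so that the 10 genes were counted from 0 to 4 reads (Fosl1 in UNT) up to 15616 reads (Jund in PBS). No 2 libraries were alike. Pkd2 itself had 220 to 338 counts-per-million (CPM) in UNT, 98.0 to 215 CPM in PBS and 170 to 237 CPM in RGLS4326, in whole kidneys where the untargeted cells still carry the gene. In 2 PBS libraries, replicates 2 and 11, the adrenal genes Star (302 and 450 CPM, against at most 15.7 CPM in the other PBS libraries) and Cyp11b1 (97.0 and 202 CPM) were high, and the counts of genes called between RGLS4326 and PBS are given with and without both. The table names restart their running number, which gave 3 numbering sets of 11 or 12 libraries. What a set stands for is not given in the sources used here. The share of reads in no gene was 9.84 to 11.3% in UNT, 5.18 to 9.0% in PBS and 4.94 to 12.0% in RGLS4326, and the share of reads that mapped to several places was 22.8 to 25.7%, 14.8 to 19.4% and 14.8 to 19.1%. In all 3 groups the libraries carried the markers of kidney tubules.

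In UNT kidney the 10 genes spanned a wide range of levels. Per kilobase of annotated exon, so that genes can be compared, Jund led with 49.5 ± 9.0 CPM per kb (SD, n = 12), followed by Jun at 15.8 ± 4.37 CPM per kb. Jund, the constitutive member of the Jun family, stood above Jun in every comparison of UNT mice, since its lowest mouse had 28 CPM per kb and the highest mouse for Jun 26.1 CPM per kb. Ier2, Junb, Fosl2, Egr1, Atf3 and Fos followed with means from 8.39 down to 0.77 CPM per kb, and each overlapped its neighbour in this order. Fosb at 0.0537 ± 0.0249 CPM per kb and Fosl1 at 0.0233 ± 0.0122 CPM per kb came last, and the step from Fos to Fosb had no overlap. In PBS kidney, Jund still led with 135 ± 28.9 CPM per kb, Junb had moved from the fourth place to the second with 46.4 ± 7.47 CPM per kb, with a range that overlapped that of Jun at 46.2 ± 5.79 CPM per kb, and Fosl1 and Fosb again came last, at 0.692 ± 0.321 and 0.687 ± 0.215 CPM per kb. The order in RGLS4326 kidney had Jun before Junb, at 43.2 ± 3.75 and 40.1 ± 9.26 CPM per kb, with overlapping ranges, and kept Jund first at 101 ± 20.8 CPM per kb.

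All 10 genes were higher in PBS-treated Pkd2-KO kidney than in UNT kidney, by 1.45 (Jund) to 4.79 (Fosl1) on the log2 scale, and for each of the 10 every PBS mouse lay above every UNT mouse. Differences between these groups were broad, and 82.1% of the tested genes were called in this comparison, 43.1% as higher and 39.0% as lower, at an adjusted p under 0.05 (edgeR's quasi-likelihood test, Benjamini-Hochberg over all 15644 genes). Every PBS mouse lay above every UNT mouse for 22.7% of tested genes. The median log2 fold change of the 10 genes was 2.94, against 0.04 over all tested genes. In whole kidney RNA, more transcript per cell and more cells that carry the transcript cannot be told apart.

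**Figure D1:**
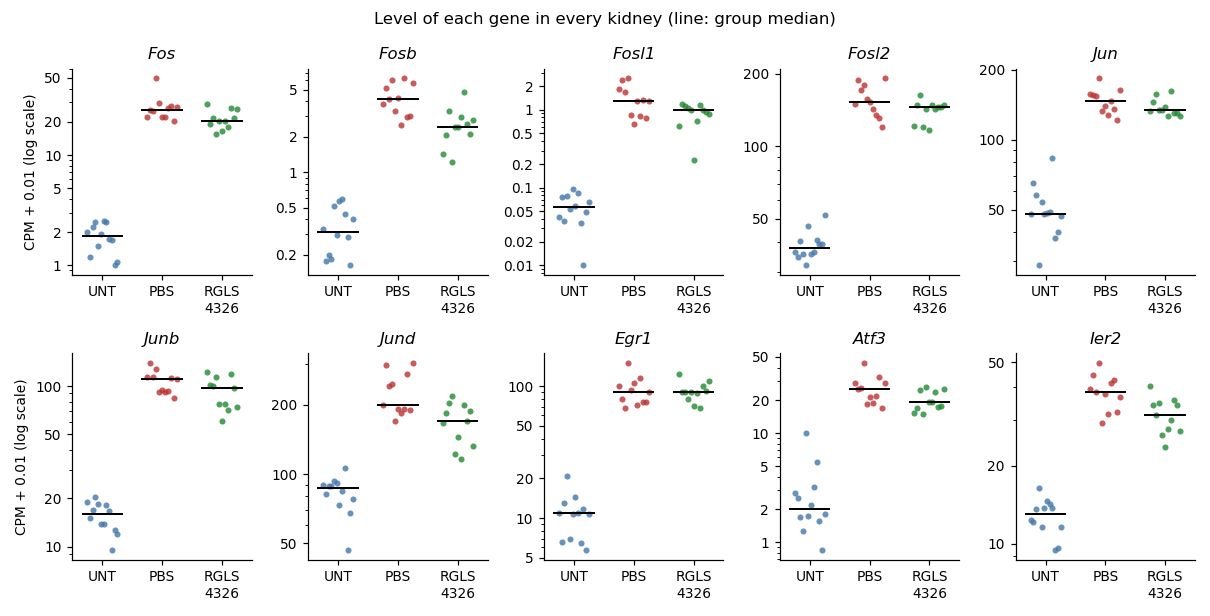
Level of each of the 10 genes in every kidney, as counts-per-million (CPM) plus 0.01 on a log axis, in UNT (n = 12), PBS (n = 11) and RGLS4326 (n = 11) mice; points are mice in replicate order and the line is the group median. The PBS and RGLS4326 points lie above all UNT points in each panel, and the PBS and RGLS4326 points overlap in each panel.

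Among the Fos family, Fos had 0.988, 1.82 and 2.54 CPM as the lowest, median and highest UNT value and 20.5, 25.4 and 50.02 CPM as those of PBS. The PBS mouse at 50.02 CPM was replicate 4, and the next PBS mouse had 29.5 CPM. Fos was thus higher by 3.89 on the log2 scale, 14.8-fold (SE 0.16, adjusted p = 9.1e-22 in edgeR), and it was 3.76 without PBS replicate 4. Fosb, a close relative of Fos, rose from 0.152, 0.303 and 0.58 CPM (lowest, median, highest of UNT) to 2.51, 4.16 and 6.29 CPM in PBS, a difference of 3.63 ± 0.23 in log2 (SE, adjusted p = 1.75e-16 in edgeR), which was 4.31 in set 1 alone and 3.02 in set 2 alone. Fosl1, which encodes Fra-1 and is normally near silent in resting epithelium, had 0 to 4 reads per UNT library, 20 reads over the 12 together, and 20 to 91 reads per PBS library. Its level went from 0.0, 0.0461 and 0.0874 CPM in UNT to 0.643, 1.28 and 2.56 CPM in PBS. This was the steepest rise of the 10, at 4.79 on the log2 scale (SE 0.32, adjusted p = 5.75e-16 in edgeR), and it stood 125th from the top among all tested genes. With so few UNT reads the size of this fold is less certain than its direction, and with the percentage of reads outside genes as a covariate it was 4.15 (SE 0.41). Fosl1 passed the filter on low counts only through the KO libraries, where it is high. With RGLS4326 and UNT alone it failed that filter. Its call, its rank and its lead among the 10 are thus not independent of how it entered the test. Of the annotated exon bases of Fosl1, 57.2% lie opposite exons of Ccdc85b, which had 15.2 to 30.5 CPM in UNT and 24.2 to 35.2 CPM in PBS. The library kit kept the strand, but the strand setting of the counting is not given in the sources used here. Fosl2, which encodes Fra-2, was already at 32.0 to 51.6 CPM in UNT and had 120 to 192 CPM in PBS, a difference of 2.01 ± 0.08 in log2 (SE, adjusted p = 4.6e-22 in edgeR).

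The Jun family, whose proteins are the obligatory partners of Fos proteins, rose by 1.45 to 2.78 on the log2 scale. Jun had 28.7, 47.9 and 83.2 CPM (lowest, median, highest) in UNT and 121, 147 and 184 CPM in PBS, a difference of 1.54 ± 0.11 in log2 (SE, adjusted p = 1.37e-15 in edgeR). Junb went from 9.49, 15.9 and 20.5 CPM to 84.1, 111 and 140 CPM, the largest difference of the 3 Jun genes, at 2.78 (SE 0.12, adjusted p = 8.87e-21 in edgeR). Jund went from 46.7, 86.6 and 106 CPM to 169, 199 and 304 CPM, at 1.45 (SE 0.12, adjusted p = 2.23e-13 in edgeR). The 2 highest PBS mice for Jund were replicates 11 and 2, with 304 and 296 CPM, the libraries with the adrenal transcripts, and the other 9 PBS mice averaged 209 ± 34.9 CPM (SD). Without both, the log2 fold change of Jund against UNT was 1.34 (SE 0.12). With the percentage of reads outside genes as a covariate, a share that did not overlap between UNT and PBS, it was 0.95 (SE 0.14, adjusted p = 3.45e-07 in edgeR). An annotated antisense transcript, not among the genes of the tables, lies opposite 52.6% of the exon bases of Jund, and one lies opposite 7.28% of those of Jun. Of the exon bases of Junb, 7.52% lie opposite exons of Prdx2, a peroxiredoxin gene of the tables with 246 ± 17.1 CPM in UNT (SD, n = 12) and 284 ± 47.0 CPM in PBS (n = 11).

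Atf3, Egr1 and Ier2 are immediate early genes outside the Fos and Jun families. Atf3 had 0.836, 2.0 and 10.1 CPM (lowest, median, highest) in UNT and 17.1, 25.3 and 44.1 CPM in PBS, a difference of 3.10 ± 0.27 in log2 (SE, adjusted p = 7.69e-13 in edgeR). It was the least even of the 10 within UNT, with a coefficient of variation of 87.2%, and UNT replicates 5 and 9 were high at 10.1 and 5.40 CPM. Without UNT replicate 5 the log2 fold change was 3.48. Egr1, a zinc finger factor that shares the SRF route with Fos, had 5.7, 10.9 and 20.7 CPM in UNT and 67.9, 90.0 and 150 CPM in PBS, a difference of 3.11 ± 0.17 in log2 (SE, adjusted p = 1.95e-18 in edgeR). Ier2, a small nuclear protein gene, had 9.44, 13 and 16.4 CPM in UNT and 29.2, 38.4 and 49.7 CPM in PBS, a difference of 1.59 ± 0.10 in log2 (SE, adjusted p = 2.66e-17 in edgeR). PBS replicate 4 was the highest PBS mouse for Fos, Fosl1, Jun, Egr1, Atf3 and Ier2.

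All 10 genes were also called higher in each of sets 1, 2 and 3 alone (edgeR), where 37.0%, 35.9% and 33.8% of tested genes were called higher. The PBS and UNT mice did not overlap for any of the 10 within a set, and every PBS mouse lay above every UNT mouse for 38.8%, 34.8% and 30.5% of tested genes in sets 1, 2 and 3. Within set 2 the means of Fos were 2.11 CPM in UNT (n = 4) and 30.9 CPM in PBS (n = 4), and within set 3 they were 1.37 and 25.6 CPM (n = 4 each). A test of whether the group differences varied with the set called 0 of 15644 genes (edgeR, group by set terms), with 2547 genes at an unadjusted p under 0.05, and the adjusted p of the 10 genes ran from 0.370 (Ier2) to 0.980 (Jun). The median coefficient of variation of the 10 genes within a group was 29.0% in UNT, 23.7% in PBS and 20.5% in RGLS4326, against 13.9%, 16.4% and 15.2% over all tested genes, and 9, 6 and 8 of the 10 lay above the median of all tested genes.

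Markers of other cells moved with the same groups, where 43.1% of all tested genes were called higher and 39.0% lower in PBS than in UNT. Of 9 immune cell markers 8 were called higher in PBS than in UNT and 0 lower, and their summed level was 75.2 to 129 CPM in UNT, 301 to 620 CPM in PBS and 306 to 552 CPM in RGLS4326. Of 6 fibroblast markers all 6 were called higher, with sums of 528 to 1090, 2390 to 4510 and 2870 to 4230 CPM. The 6 proximal tubule markers were all called lower, with sums of 11100 to 14800 CPM in UNT, 1080 to 3680 CPM in PBS and 2240 to 4060 CPM in RGLS4326. Of 8 distal nephron and podocyte markers 2 were called higher and 6 lower, and of 5 endothelial markers 2 were higher and 3 lower. Of 8 markers of adrenal, fat, liver, muscle and pancreas 5 were tested, and 2 were called higher and 2 lower. Of all these markers, Cyp11b1 alone was at 0 in every library of a group, which was UNT. Their part in the rise of the 10 genes was not tested. Heat shock genes, which respond to protein damage, did not move one way: 3 of 9 were called higher in PBS than in UNT, among them Hspb1 (2.11 ± 0.15, adjusted p = 1.93e-15 in edgeR), and 3 lower, among them the mitochondrial chaperone gene Hspd1 (-1.37 ± 0.09, adjusted p = 9.46e-17 in edgeR), with a median log2 fold change of 0.17. After RGLS4326, 1 of the 9 was called lower than in PBS, Hspb1 (-0.63 ± 0.15, adjusted p = 0.0036 in edgeR), which was still called without PBS replicates 2 and 11.

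After RGLS4326, 4 of the 10 genes were called lower than in PBS, namely Fosb, Fosl1, Jund and Ier2, and none higher. All 10 fold changes against PBS were below 0, from -0.74 (Fosb) to -0.03 (Egr1) on the log2 scale, with a median of -0.32 against 0.00 over all tested genes. In this comparison 33.8% of tested genes were called, 18.5% as lower and 15.3% as higher (edgeR). The RGLS4326 and PBS mice overlapped for each of the 10 genes.

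**Figure D2:**
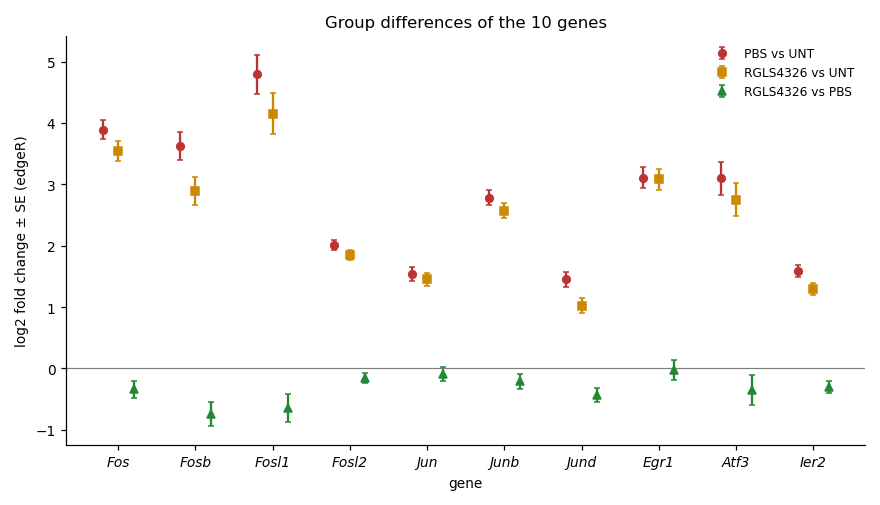
Log2 fold change of each gene with its standard error (edgeR, all 34 libraries) for PBS against UNT, RGLS4326 against UNT and RGLS4326 against PBS. The differences from UNT run from 1.02 to 4.79, and the differences of RGLS4326 from PBS run from -0.74 to -0.03.

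Fosb had 1.22, 2.42 and 4.82 CPM as the lowest, median and highest RGLS4326 value, and 6 of the 11 mice lay below the lowest PBS mouse at 2.51 CPM. The difference from PBS was -0.74 in log2 (SE 0.20, adjusted p = 0.00826 in edgeR), and its mean fell from 4.29 to 2.55 CPM, 44.1% of the distance between PBS and UNT. Fosl1 had 0.213, 0.988 and 1.16 CPM in RGLS4326, with all 11 mice below the PBS mean of 1.41 CPM, a difference of -0.65 ± 0.23 in log2 (SE, adjusted p = 0.0299 in edgeR). This call was lost without any one of PBS replicates 2 and 4 or RGLS4326 replicates 1, 6 and 7 (edgeR adjusted p = 0.0665, 0.0776, 0.0513, 0.0546 and 0.0515). It was also lost with limma voom (adjusted p = 0.0701) and when UNT was left out of the fit (adjusted p = 0.0561 in edgeR). The log2 value of Fosl1 was -0.52 to -0.61 without those single libraries, -0.58 in limma voom and -0.64 without UNT, against -0.65 with all libraries. Jund had 117, 170 and 218 CPM, again with all 11 mice below the PBS mean of 226 CPM and 5 below the lowest PBS mouse, a difference of -0.43 ± 0.12 in log2 (SE, adjusted p = 0.0103 in edgeR). Ier2 had 23.6, 31.4 and 40.3 CPM, with 10 of 11 mice below the PBS mean, a difference of -0.30 ± 0.10 in log2 (SE, adjusted p = 0.0186 in edgeR). Fosb, Jund and Ier2 kept the call whichever single library was left out.

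The other 6 genes did not pass the test. Fos had 15.6, 20.5 and 29.1 CPM in RGLS4326, with 10 of 11 mice below the PBS mean, and a log2 fold change of -0.34 (95% interval -0.64 to -0.05, edgeR adjusted p = 0.0607). It passed the threshold without RGLS4326 replicate 1, PBS replicate 7 or PBS replicate 10 (edgeR adjusted p = 0.0389, 0.0456 and 0.0471), and in limma voom (adjusted p = 0.0374), and stood at -0.22 without PBS replicate 4. Atf3 had 15.0, 19.1 and 26.7 CPM and a log2 fold change of -0.35 (interval -0.87 to 0.16, adjusted p = 0.273 in edgeR). Junb had 60.9, 96.9 and 123 CPM, with 5 mice below the lowest PBS mouse and 3 above the PBS mean, and a log2 fold change of -0.21 (interval -0.46 to 0.03, adjusted p = 0.159 in edgeR). Fosl2 had 117, 145 and 164 CPM and a log2 fold change of -0.16 (interval -0.32 to 0.01, adjusted p = 0.118 in edgeR). Of the 6 intervals, which are not adjusted for the number of genes, only that of Fos left out 0. Jun had 126, 134 and 162 CPM and a log2 fold change of -0.09 (interval -0.31 to 0.12, adjusted p = 0.496 in edgeR). Egr1 had 68.2, 90.3 and 123 CPM against 67.9, 90.0 and 150 CPM in PBS, the nearest pair of groups, with a log2 fold change of -0.03 (interval -0.36 to 0.29, adjusted p = 0.888 in edgeR). Its sign turned to 0.0584 without PBS replicate 4, and to values of at most 0.00357 without PBS replicate 8, RGLS4326 replicate 6 or RGLS4326 replicate 8. Fosl2 and Atf3, the 2 genes with a seed match, were among the 6 without a call, and neither was higher in RGLS4326.

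The calls of lower values after RGLS4326 changed with the libraries and terms used. Without PBS replicates 2 and 11, only Fosb kept the call, where 10.4% of tested genes were called lower (-0.65 ± 0.21, adjusted p = 0.0357 in edgeR), and Jund (-0.32), Ier2 (-0.28) and Fosl1 (-0.55) had adjusted p of 0.0575, 0.0516 and 0.0902. With the percentage of reads outside genes as a covariate, none of the 10 genes was called by edgeR, and 89 of 15644 genes were called in all, with 3199 at an unadjusted p under 0.05. Of the 4 genes Fosb then stood at -0.75 (SE 0.24, adjusted p = 0.105), Jund at -0.20 (SE 0.11, adjusted p = 0.303), Fosl1 at -0.34 (SE 0.25, adjusted p = 0.425) and Ier2 at -0.13 (SE 0.10, adjusted p = 0.406). That share had a median of 6.62% in PBS and 8.38% in RGLS4326, and in set 2, where the groups lay farthest apart, it was 5.49 to 8.99% in PBS and 11.3 to 12.0% in RGLS4326. Set 2 alone called Junb (-0.49), Jund (-0.62) and Ier2 (-0.51), at edgeR adjusted p of 0.032, 0.00924 and 0.0377, and called 4065 of 15944 genes, 11.9% as lower. Sets 1 and 3 alone called none of the 10 genes, and 54 and 0 genes in all, with 3421 and 2826 at an unadjusted p under 0.05. Each set held 3 or 4 mice per KO group. In the 3 sets Fosb was at -1.09, -0.61 and -0.56, Fosl1 at -0.99, -1.06 and -0.09, Jund at -0.34, -0.62 and -0.47, and Ier2 at -0.20, -0.51 and -0.27. Fos, Jun, Junb and Atf3 were also below 0 in each set, while Fosl2 in set 3 and Egr1 in sets 1 and 3 were above 0. Markers of other cells differed between the KO groups as well, where 18.5% of all tested genes were called lower and 15.3% higher after RGLS4326. The fat marker Adipoq (-0.97 ± 0.25, adjusted p = 0.00687 in edgeR) and Star (-4.13 ± 0.86, adjusted p = 0.00205) were called lower after RGLS4326, and the fibroblast marker Pdgfra (0.53 ± 0.11, adjusted p = 0.00265) was called higher, the only call among the 6 fibroblast markers. Of the 9 immune markers 2 were called lower after RGLS4326 (Cd68 at -0.80 ± 0.17 in log2, adjusted p = 0.00258 in edgeR, and Cd3e at -0.74 ± 0.23, adjusted p = 0.0174) and 0 higher, of the 6 proximal tubule markers 4 were called higher, of the 5 endothelial markers 4 were called higher, and of the 8 distal nephron and podocyte markers 6 were called higher and 2 lower, Aqp2 and Fxyd4, which mark the collecting duct. Without PBS replicates 2 and 11, Star (-0.20 ± 0.37) and Aqp2 (-0.61 ± 0.30) lost their calls, 4 distal markers and 2 endothelial markers were called higher, and Cd68, Cd3e, Adipoq, Pdgfra, Fxyd4 and 4 proximal tubule markers were still called. The part of these markers and of the read shares in the difference between the KO groups was not tested.

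**Figure D3:**
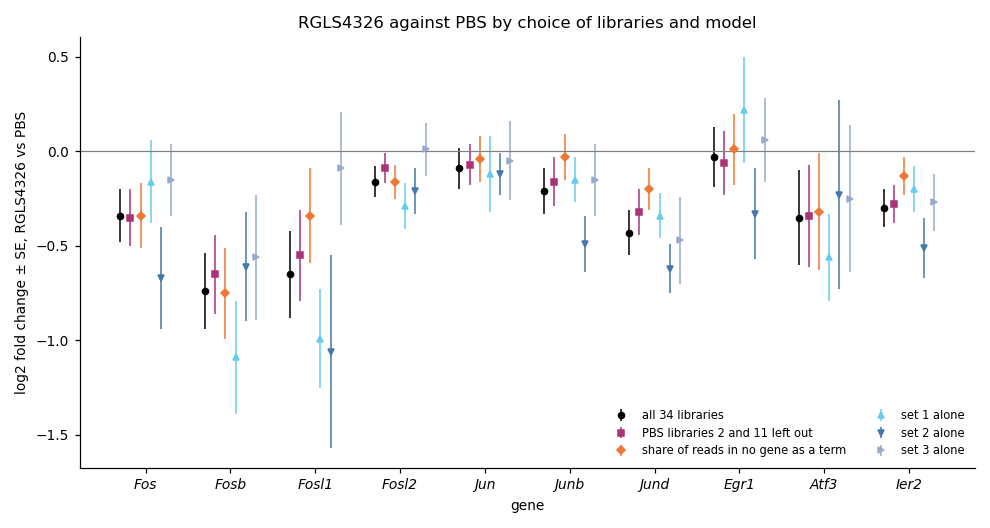
Log2 fold change of RGLS4326 against PBS for each gene with its standard error (edgeR), with all 34 libraries, without PBS replicates 2 and 11, with the percentage of reads outside genes as a covariate, and in each numbering set alone. Egr1 and Fosl2 lie on both sides of 0, and the other 8 genes lie below 0 in all 6 settings.

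Against UNT, RGLS4326 kidneys kept all 10 genes higher, and 40.8% of tested genes were called higher and 36.9% lower (77.7% in all, edgeR). The log2 fold changes were 3.54 for Fos (SE 0.16, adjusted p = 1.38e-20 in edgeR), 4.15 for Fosl1 (SE 0.33), 3.08 for Egr1 (SE 0.17) and 1.02 for Jund (SE 0.12, adjusted p = 1.37e-09 in edgeR), and the others lay between 1.3 (Ier2) and 2.89 (Fosb). The value of Fosl1 was 3.22 (SE 0.71) in set 2 alone and 5.17 (SE 0.50) in set 3 alone. Every RGLS4326 mouse lay above every UNT mouse for all 10 genes, as was so for 20.7% of tested genes. As a share of the distance between the PBS and UNT means, the RGLS4326 mean lay lower by 44.1% for Fosb, 40.5% for Jund, 37.8% for Fosl1 and 27.8% for Ier2, and by 2.51% for Egr1. The PBS mice enter both contrasts, so this share is a description and not a further test.

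Within a group, the level of Fos was set against that of each of the other 9 genes over the mice of that group, 27 relations in all (Pearson's r and Spearman's rho on log2(CPM + 1), permutation tests, Benjamini-Hochberg over the 27). Fos and Egr1 moved together in the RGLS4326 mice (r = 0.90, permutation p = 0.00022, adjusted p = 0.00594; rho = 0.91, permutation p = 0.00035, adjusted p = 0.00945; n = 11), and r was 0.90 without replicates 1 and 4, the mice farthest from the median of Fos. After the set means were subtracted and mice were permuted within sets, r was 0.94 with an adjusted permutation p of 0.0508. In the same RGLS4326 mice r of Fos was then -0.78 with Jund (adjusted permutation p = 0.104) and -0.49 with Jun (adjusted permutation p = 0.381), against -0.24 and -0.38 before the set means were subtracted, and 4 of the 9 values were below 0. In the UNT mice r of Fos and Egr1 was 0.73 (permutation p = 0.00705, adjusted p = 0.0634; rho = 0.76, adjusted p = 0.0535; n = 12) and that of Fos and Ier2 was 0.74 (permutation p = 0.00652, adjusted p = 0.0634; rho = 0.83, adjusted p = 0.02). In the PBS mice all 9 values of r were above 0, from 0.31 (Jund) to 0.72 (Atf3), and none passed the threshold. Without replicates 4 and 10, the mice farthest from the median of Fos, the r of Fos with Atf3 was 0.11, with Egr1 0.01 and with Jun 0.05, and the median of the 9 fell from 0.52 to 0.05. The rank-based rho over all PBS mice ran from 0.32 to 0.50. After the set means were subtracted, r without the farthest mice, then replicates 4 and 7, was 0.71 with Fosl1, 0.63 with Junb, 0.53 with Jun, 0.52 with Atf3 and -0.03 with Egr1.

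**Figure D4:**
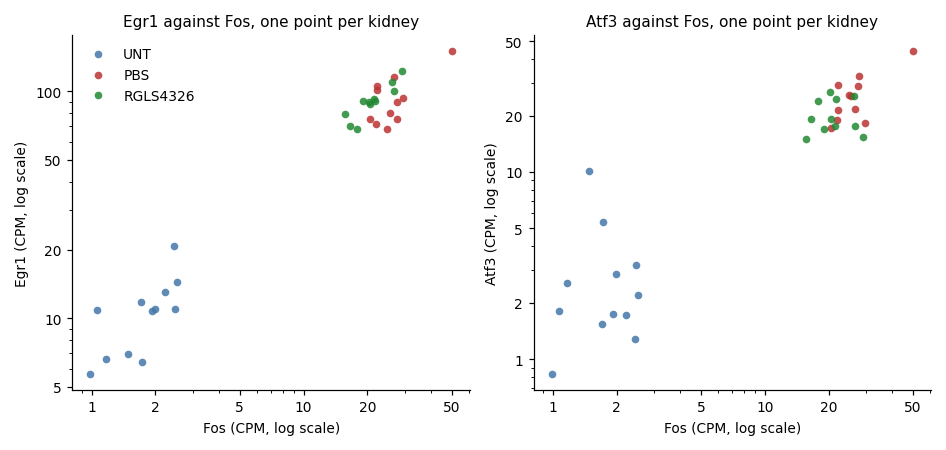
Egr1 (left) and Atf3 (right) against Fos in each kidney, in CPM on log axes, with UNT, PBS and RGLS4326 mice in blue, red and green. Egr1 climbs with Fos among the RGLS4326 mice (r = 0.90), and the PBS mouse at the upper right of both panels is replicate 4, with 50.02 CPM of Fos.

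Over all 34 libraries with the group means subtracted, the Spearman rho of the 45 pairs among the 10 genes ran from -0.21 to 0.79 with a median of 0.23, and 40 pairs were above 0. The genes most like Fos by this measure were Egr1 (0.67), Clec2l (0.63), Ankrd13b (0.57), Fbxl6 (0.55) and Ier2 (0.54), so that 2 of the 5 were among the 10. For Fosl1 they were Ywhag (0.71), Tmem145, Sf3b3, Nfkb1 and Tcof1 (0.68 each), and for Atf3 they included Dusp8 (0.86), Med20 (0.84), Ajuba (0.82) and Rcc1 (0.80). Jund was followed most closely by Krt7, a keratin of simple epithelium (0.94), then by Bcl7b (0.93), Rrp1 (0.92), Triobp (0.91) and Rbm42 (0.91). These values are descriptions over mice whose libraries differ in depth and fall into the numbering sets.

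The wider pathway was taken from lists of named genes, chosen with earlier results of these data known, so that their counts and medians are descriptions. Over all tested genes, 43.1% were called higher and 39.0% lower in PBS than in UNT. After RGLS4326, 18.5% were called lower and 15.3% higher than in PBS. Without PBS replicates 2 and 11, 1631 of 15706 genes were called lower and 1205 higher. Of 10 genes for AP-1 partner proteins, 8 were called higher in PBS than in UNT and 2 lower, with a median log2 fold change of 0.74. Maff, a small Maf protein gene, had 2.86 ± 0.434 CPM in UNT (SD, n = 12) and 22.6 ± 4.23 CPM in PBS (n = 11), a difference of 2.99 ± 0.11 in log2 (SE, adjusted p = 6.51e-23 in edgeR), and Batf, an AP-1 partner of lymphoid and myeloid cells, rose by 2.91 (SE 0.22). Mafg (-0.89, SE 0.10) and Atf2 (-0.31, SE 0.08) were the 2 that fell. After RGLS4326, 5 of the 10 were called lower and 1 higher than in PBS, among them Jdp2, a repressor of AP-1, at -0.34 (SE 0.09, adjusted p = 0.0086 in edgeR), Batf at -0.62 (SE 0.20, adjusted p = 0.0169 in edgeR) and Mafg at 0.33 (SE 0.11, adjusted p = 0.0183 in edgeR). Without PBS replicates 2 and 11, 3 were called lower, among them Jdp2 and Batf, and 0 higher.

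Of 30 other immediate early genes 29 were tested, and 23 were called higher in PBS than in UNT, 4 lower and 2 not, with a median of 1.34. Egr2, a relative of Egr1, had 0.431 ± 0.144 CPM in UNT and 22.4 ± 5.14 CPM in PBS, a difference of 5.69 ± 0.17 in log2 (SE, adjusted p = 5.35e-25 in edgeR). Socs3, a cytokine-induced inhibitor of JAK signalling, went from 2.86 ± 0.495 to 81.2 ± 16.9 CPM (4.82, SE 0.15). The immediate early response was not uniform, since Sgk1, a kinase induced by aldosterone and glucocorticoids, fell from 609 ± 220 to 184 ± 58.1 CPM (-1.73 ± 0.20, adjusted p = 1.02e-09 in edgeR) and Sik1, a kinase of cyclic AMP signalling, fell from 120 ± 19.4 to 73.6 ± 8.11 CPM (-0.70, SE 0.09). After RGLS4326, 8 of the 29 were called lower than in PBS and 1 higher, with 20 not called and a median of -0.15: Arc, best known as a neuronal activity gene, was at -0.46 (SE 0.13, adjusted p = 0.0122 in edgeR), Ier5l at -0.47 (SE 0.14, adjusted p = 0.0148 in edgeR) and Sik1 at 0.24 (SE 0.09, adjusted p = 0.0331 in edgeR). Without PBS replicates 2 and 11, only Arc was called (-0.45 ± 0.14, adjusted p = 0.0333 in edgeR).

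Genes upstream of the 10 had medians nearer to 0. Their counts stand beside 43.1% of all tested genes called higher and 39.0% lower in PBS than in UNT. After RGLS4326 the shares of all tested genes were 18.5% lower and 15.3% higher than in PBS. Of 8 SRF, TCF and CREB genes 4 were called higher in PBS and 1 lower, with a median of 0.42: Elk3, a TCF gene, was at 1.29 (SE 0.07), the SRF coactivator gene Mkl1 at 1.26 (SE 0.08) and Creb1 at -0.28 (SE 0.10, adjusted p = 0.0157 in edgeR). After RGLS4326, 3 of the 8 were called higher than in PBS, including Creb1 (0.30 ± 0.11, adjusted p = 0.0297 in edgeR) and Elk1 (0.20 ± 0.06, adjusted p = 0.0183 in edgeR), and 0 of the 8 were called lower. None of the 8 was called without PBS replicates 2 and 11. Of 14 MAP kinase genes 5 were called higher in PBS, 5 lower and 4 not, with a median of 0.00. Rps6ka1, which encodes the ERK-activated kinase RSK1, was at 1.52 (SE 0.09) and Map3k1 at 1.39 (SE 0.07), whereas Mapk14, which encodes p38α, was at -0.58 (SE 0.05) and Mapk9, which encodes JNK2, at -0.57 (SE 0.04). After RGLS4326, 4 of the 14 were lower and 3 higher: Mapk3, which encodes ERK1, was at -0.40 (SE 0.09, adjusted p = 0.00262 in edgeR), Rps6ka1 at -0.34 (SE 0.09), Mapk8, which encodes JNK1, at 0.36 (SE 0.09, adjusted p = 0.00642 in edgeR) and Mapk9 at 0.14 (SE 0.05). Without PBS replicates 2 and 11, 2 were called lower, Mapk3 and Rps6ka1, and 1 higher, Mapk8.

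Of 13 genes for inhibitors of MAP kinase signalling 9 were called higher in PBS than in UNT and 1 lower, with a median of 0.53. Over all tested genes these shares were 43.1% and 39.0%, and after RGLS4326 18.5% were called lower and 15.3% higher than in PBS. Dusp5, an ERK phosphatase, rose from 0.55 ± 0.0829 to 3.30 ± 0.724 CPM (2.56 ± 0.13, adjusted p = 9.21e-20 in edgeR) and Spry1 from 27.3 ± 4.64 to 66 ± 6.03 CPM (1.27, SE 0.07), whereas Dusp1, itself an immediate early gene, fell from 96.0 ± 33.2 to 64.4 ± 12.0 CPM (-0.58 ± 0.16, adjusted p = 0.00123 in edgeR). After RGLS4326, 3 of the 13 were called lower than in PBS, including Dusp10 (-0.45 ± 0.13, adjusted p = 0.0109 in edgeR) and Dusp5 (-0.32 ± 0.12, adjusted p = 0.0331 in edgeR), and 1 was called higher, Spred1 (0.32 ± 0.11, adjusted p = 0.0266 in edgeR). None of the 13 was called without PBS replicates 2 and 11. Of 16 known AP-1 target genes 15 were tested, and 13 were called higher in PBS than in UNT, 1 lower and 1 not, with a median of 2.67. Lif, an interleukin 6 family cytokine, rose from 0.401 ± 0.15 to 27.2 ± 8.12 CPM (6.08 ± 0.20, adjusted p = 1.45e-24 in edgeR) and the hyaluronan receptor gene Cd44 from 3.26 ± 0.649 to 55.4 ± 10.9 CPM (4.08, SE 0.13), while the collagenase gene Mmp13 fell (-0.81 ± 0.16, adjusted p = 3e-05 in edgeR). After RGLS4326, 3 of the 15 were called lower and 0 higher, with a median of -0.19: the urokinase receptor gene Plaur was at -0.53 (SE 0.11, adjusted p = 0.00192 in edgeR) and Hmox1, heme oxygenase 1, at -0.56 (SE 0.17, adjusted p = 0.0125 in edgeR), and both were still called without PBS replicates 2 and 11. Immune cell and fibroblast markers were also higher in PBS than in UNT, and their part in the rise of these targets was not tested.

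**Figure D5:**
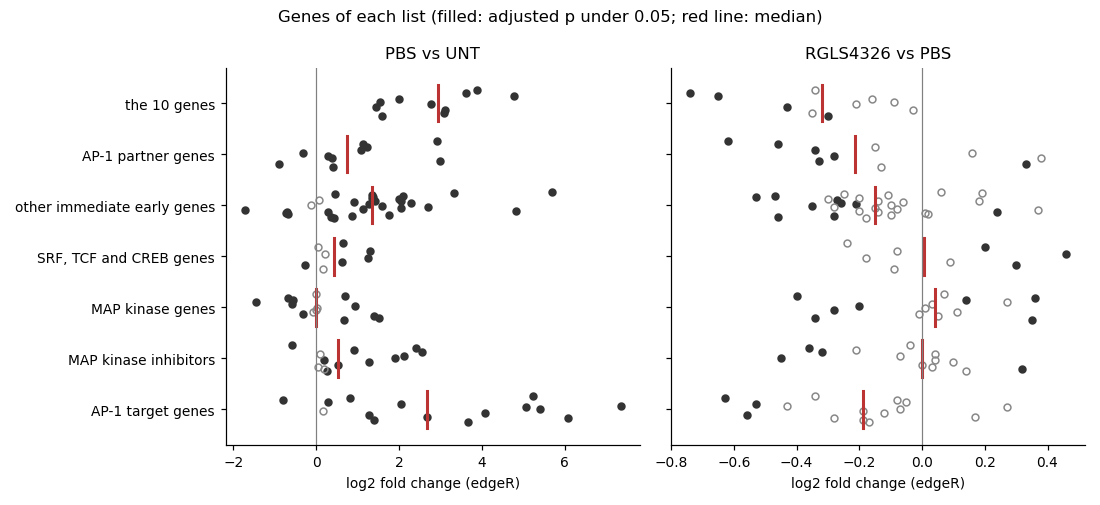
Log2 fold change (edgeR) of each tested gene of the 10 and of 6 related lists, PBS against UNT (left) and RGLS4326 against PBS (right, narrower axis); filled points have an adjusted p under 0.05 and the red line is the list's median. The medians on the left run from 0.00 (MAP kinase genes) to 2.94 (the 10 genes), and on the right from -0.32 (the 10 genes) to 0.04 (MAP kinase genes).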

How the data were processed

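RNA from 34 kidneys was made into libraries with a poly(A), strand-keeping kit and read as paired ends. By the study's methods, with versions from the submitters' processing notes, the authors checked reads (FastQC 0.11.2), trimmed them (Trim Galore), mapped them to GRCm38 (STAR) and counted those mapped uniquely in each gene (HTSeq 0.6.1), with Picard 1.119 for quality. SAMtools 1.1 is also named in the notes. The deposited values are raw counts for 23509 genes per library; the annotation and the strand setting are not given in the sources used here. The 5 counter totals per table (reads in no gene and the like) stayed out of library sizes and tests, and the first of them came to 4.94 to 12.0% of reads.

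The counts were fitted in edgeR 4.0.16 (R 4.3.3): TMM factors, filterByExpr by group, 1 quasi-likelihood model with 3 group means over all 34 libraries, and Benjamini-Hochberg adjustment over the 15644 tested genes, with calls at an adjusted p under 0.05. The SE is the log2 fold change divided by the square root of F, and 95% intervals use 31 residual degrees of freedom. CPM were scaled with the TMM factors. Levels per kilobase used merged exons of GENCODE M21 (GRCm38). Relations within a group used 100000 two-sided permutations (scipy 1.17.1). The scripts were tested on simulated data. Members and lists were chosen with earlier results of these data known. All 10 genes are named; from other lists at most 4 called genes per contrast, 2 per direction, with the smallest adjusted p; and for 4 of the 10 the 5 most alike genes, of which 1 is not reported here. Marker symbol Adgre1 was matched to Emr1 through RefSeq synonyms. Alternatives were other scaling (RLE, upper quartile), no filter, DESeq2 1.42.0, limma voom 3.58.1, 2 groups only, numbering set or the percentage of reads outside genes as a covariate, a replicate block, single sets, leaving out each library and, chosen after seeing the data, leaving out PBS replicates 2 and 11.

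Replicates are numbered in the labels and each was taken as 1 mouse; litters are not given. Precision follows from 17603122 to 54981992 reads in genes per library, and intervals cover the spread between these mice.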

Additional observations from a re-analysis of the deposited data

How the results depend on the processing

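The 10 genes stayed higher than in UNT in both KO groups under every alternative that gave a value for them (340 leave-one-out values and 130 or 129 other values per comparison); Fosl1 had no value for RGLS4326 against UNT with only those 2 groups, since it failed the filter. For RGLS4326 against PBS, 4 of the 10 genes were called with all libraries. With the percentage of reads outside genes as a covariate the count was 0, in set 1 alone 0, in set 3 alone 0, and without PBS libraries 2 and 11 it was 1. The count of all genes called moved from 5280 to 89 with that covariate, to 54 in set 1, to 4065 in set 2, to 0 in set 3 and to 2836 without PBS libraries 2 and 11; the cause was not tested. Leaving out 1 library at a time gave 3 to 5 called genes of the 10 and 4023 to 6209 of all. The log2 fold change of Egr1 against PBS turned to 0.00517 with that covariate, 0.00678 with the replicate block, 0.223 in set 1 and 0.0575 in set 3, and ran from -0.0842 to 0.0584 over single libraries left out, and that of Fosl2 turned to 0.00877 in set 3. Relations with Fos past the threshold numbered 1 by Pearson's r, 2 by Spearman's rho and 0 after set means were subtracted and mice permuted within sets.

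The replicate numbers did not pair the mice: of 33 same-numbered pairs 9 had a correlation of their deviations over 0.1 (range -0.329 to 0.412), and 3 mice correlated best with their own number. With the replicate block the same 4 genes, Fosb, Fosl1, Jund and Ier2, were called. Depth limits Fosl1 most, with 20 UNT reads in all.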
